A study of Mus musculus with 18 samples.

Results

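The genes described are 10 that carry out antigen presentation by major histocompatibility complex (MHC) class I molecules: the heavy chain genes H2-K1, H2-D1, H2-Q4, H2-Q7 and H2-T23, the light chain gene B2m, the peptide loading genes Tap1, Tap2 and Tapbp, and the transactivator gene Nlrc5. They were taken by symbol from a count table of 54532 genes, and all 10 were among the 14876 genes with enough reads to be tested. The cells were plasmacytoid dendritic cells (pDCs), which are known for making type I interferon, grown out of wild-type C57BL/6 mouse marrow over 7 days with the growth factor Flt3L (80 ng/mL). Enrichment used beads against B220, and the labels give 80% as the routine purity. The 6 groups had 3 RNA-seq libraries each. Cells were left untreated at 0 h, or were given the vehicle, named LAL in the labels, at 0 h, 6 h or 16 h. Others were given 2.5 µg/mL imiquimod (IMQ), an agonist of the RNA sensor TLR7, for 6 h or 16 h. Nothing in the labels tells whether 3 animals or cultures stand behind the 3 libraries of each group. The p-values therefore measure a spread between libraries that may be technical only.

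Class I molecules display peptides from inside the cell to CD8 T cells. Proteasomes cut proteins into peptides, the transporter made of TAP1 and TAP2 carries the peptides into the endoplasmic reticulum, and tapasin, the product of Tapbp, holds empty class I molecules at the transporter until a peptide is bound. Each molecule is a heavy chain paired with beta-2-microglobulin, the product of B2m. H2-K1 and H2-D1 encode the classical heavy chains, H2-Q4, H2-Q7 and H2-T23 encode nonclassical ones, and H2-T23 makes Qa-1, which presents peptides to receptors of natural killer cells. NLRC5 is known as the transactivator that binds class I gene promoters through partner proteins on DNA, and interferons are known to raise it and its targets.

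Library totals ranged from 10609741 to 13447018 counts. Ribosomal RNA genes took 15.5% to 17% of the counts in the vehicle at 6 h and 16 h, 11.8% to 13.2% with imiquimod and 10.8% to 12.7% at 0 h, so this share moved with the comparisons. Without these genes all 10 members were still called higher at both times. Levels are given as CPM, a gene's counts per fixed number of library counts, scaled by the trimmed mean of M-values (TMM). Replicates 1 and 2 of the vehicle at 6 h differed more than any other 2 libraries of a group: a chi-square statistic per degree of freedom was 10.5 between them and 1.32 to 4.25 in the other 17 pairs within groups. Marker genes also differed between the groups. The summed level of 11 pDC markers was 7347 to 7639 CPM up to 6 h without imiquimod, 8967 to 9079 in the vehicle at 16 h, 6222 to 6460.2 after imiquimod for 6 h and 4353 to 4432 after 16 h, with none of the 11 at 0. Single pDC markers went against the sum: Ly6d went from 173 to 583 CPM at 6 h and from 152 to 596 CPM at 16 h, and at 6 h Spib went from 443 to 861, Bst2 from 248 to 451 and Tcf4 from 1349 to 1665 CPM. Sums over 5 markers of type 1 conventional dendritic cells went from 370.4 to 450.1 CPM without imiquimod to 144 to 163 at 6 h and 88.9 to 92.5 at 16 h with it. For 5 type 2 markers the sums were 282 to 338, 149 to 155 and 123 to 125 CPM, with Cd209a at 0 after 16 h of imiquimod. Itgam alone of these went up at 16 h, from 4.95 to 6.3 CPM. For 6 monocyte and macrophage markers the sums were 344 to 536, 181 to 185 and 71.3 to 87.3 CPM. Against that sum, Ly6c2 went from 49.7 to 84.6, Cd14 from 4.1 to 9.18 and Fcgr1 from 0.369 to 16.8 CPM at 6 h. At 16 h Cd14 went from 3.44 to 7.44 and Fcgr1 from 0.445 to 4.84 CPM, while Ly6c2 was lower. Csf1r, Adgre1 and Lyz2 were lower at both times. For 10 B cell markers the sums were 112 to 148 CPM without imiquimod, 172 to 186 at 6 h and 193 to 205 at 16 h with it. Pax5 carried that increase, with 18.9 against 112 CPM at 6 h and 21.3 against 133 CPM at 16 h, while Cd79b went from 27.7 to 10.7 and from 29.7 to 16.7 CPM, and Cd79a, Ms4a1, Ebf1 and Rag1 were also lower. Sums for 7 T and NK cell markers reached 4.24 CPM, for 4 neutrophil markers 1.41 and for 5 erythroid markers 1.17, with Gzma and Hba-a2 at 0 in every group. In bulk RNA, fewer cells of a type and less RNA per cell cannot be told apart, and the part of these shifts in the results was not tested.

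Upstream of 4 of the heavy chain genes lies closely similar DNA. It is shown for 3 of them, beside that of B2m, because these genes are compared with each other below. Promoter entries of 300 bases were found in RefSeq (GRCm38.p6) for 8 of the 10 genes, and Tap2 and Nlrc5 had no match. The stretches below are written 5′ to 3′ on the gene's strand. Capitals mark 5 searched motifs on either strand: GGGATTNCC, the core of an NF-kappaB type site; AAANNGAAA, the core of an interferon-stimulated response element (ISRE); GAANNGAAA, an ISRE-like form; TGACG, the core of a cyclic AMP response element (CRE); and CCAAT. GGGATTNCC and GAANNGAAA were chosen after the promoters were read, and none of the matches shares a base with another.
H2-K1: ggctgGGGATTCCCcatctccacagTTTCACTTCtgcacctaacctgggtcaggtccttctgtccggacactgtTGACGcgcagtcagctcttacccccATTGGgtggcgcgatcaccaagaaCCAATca
H2-Q4: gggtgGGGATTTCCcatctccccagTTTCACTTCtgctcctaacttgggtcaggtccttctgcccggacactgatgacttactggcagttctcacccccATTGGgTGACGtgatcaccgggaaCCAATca
H2-Q7: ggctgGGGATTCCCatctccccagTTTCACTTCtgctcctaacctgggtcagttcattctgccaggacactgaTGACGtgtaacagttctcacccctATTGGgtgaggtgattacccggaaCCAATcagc
B2m: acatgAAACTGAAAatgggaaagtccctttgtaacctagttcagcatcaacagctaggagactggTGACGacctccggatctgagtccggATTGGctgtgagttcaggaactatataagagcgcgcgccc
The H2-K1 stretch is chr17:34000333-34000462 (minus strand), that of H2-Q4 chr17:35379439-35379568 (plus strand) and that of H2-Q7 chr17:35439018-35439147 (plus strand). That of B2m is chr2:122147544-122147673 (plus strand). The H2-K1 stretch ends 14 bases after the RefSeq start site, and the other 3 end before theirs. The matching stretches of H2-D1 and H2-T23 are not printed, since they lie inside the GENCODE models of those genes, which begin further upstream than RefSeq's.

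Pairwise identity among the H2-K1, H2-D1, H2-Q4 and H2-Q7 stretches was 82.6% to 87.1%. All 4 hold GGGATTNCC, which is in 0.938% of all 32851 promoters of the table, then GAANNGAAA on the other strand, found in 7.52%, and a TGACG, found in 20.8%. H2-T23 and B2m instead hold AAANNGAAA, found in 3466 of the 32851, and no GGGATTNCC. CCAAT was in all 8 promoters and in 37.4% of the table. The Tap1 promoter holds TGACG and CCAAT of the 5 motifs, and that of Tapbp CCAAT. The motif TTCNNNGAA, known as GAS, was in none of the 8 and in 8.3% of the table. These matches are descriptions of the letters, not measured binding sites.

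**Figure D1:**
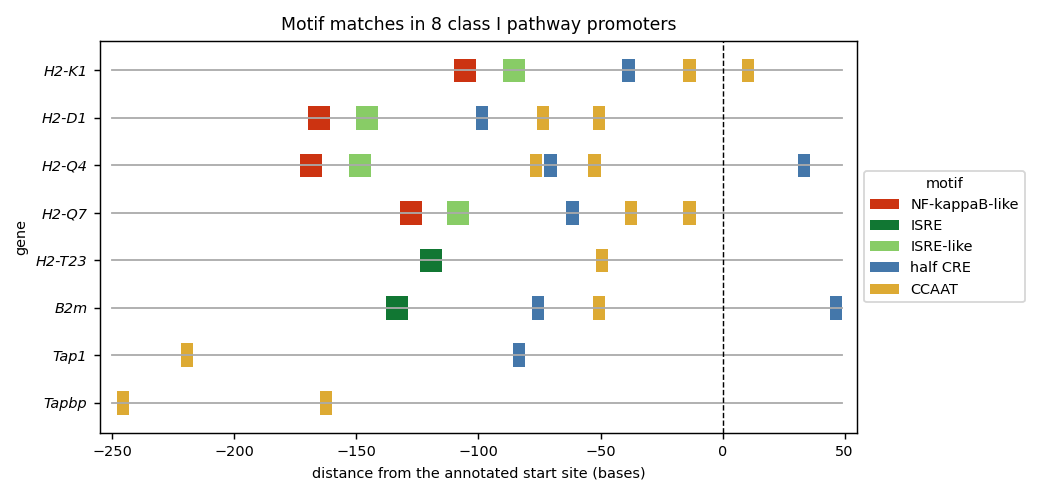
Matches of 5 motifs along the promoters of 8 class I presentation genes, by distance in bases from the RefSeq start site (dashed line); each grey line is 1 gene's promoter entry and each coloured block 1 match on either strand. The NF-kappaB-like and the ISRE-like blocks appear together in H2-K1, H2-D1, H2-Q4 and H2-Q7, and the ISRE block in H2-T23 and B2m.

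The classical heavy chains were raised by imiquimod at both times. H2-K1 (chr17:33996017-34000347, minus strand; all positions of genes are GENCODE M21 on GRCm38) stood at 371, 416 and 419 CPM in the vehicle libraries at 6 h and at 1389.8, 1443 and 1425 CPM with imiquimod. At 16 h it was 396, 401 and 411 CPM with the vehicle and 1961, 1849 and 1975 CPM with imiquimod. Every imiquimod library lay above every other library, and those of 16 h lay above those of 6 h. The log2 fold change over the vehicle was 1.82 (SE 0.03, adjusted p = 4.98e-59) at 6 h and 2.26 (SE 0.03, adjusted p = 6.56e-65) at 16 h. Here and below, SEs and adjusted p-values are from edgeR's quasi-likelihood test with Benjamini-Hochberg adjustment over the 14876 genes, and a gene is called at an adjusted p under 0.05.

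H2-D1 (chr17:35262730-35267499) had 447, 454 and 489.6 CPM in the vehicle and 1761, 1842 and 1835 CPM with imiquimod at 6 h. The 16 h values were 490.4, 472 and 494 CPM against 1956, 1882 and 1991 CPM. The imiquimod libraries were again all above the rest, with the 16 h libraries a little above those of 6 h. Its log2 fold change was 1.97 (SE 0.03, adjusted p = 8.62e-63) at 6 h and 2.00 (SE 0.03, adjusted p = 5.69e-63) at 16 h. The 2 classical genes moved unequally, and the ratio of H2-K1 to H2-D1 counts within a library was 0.783 ± 0.00627 (SD, n = 3) in imiquimod at 6 h and 0.993 ± 0.00995 at 16 h, beside 0.868 ± 0.0443 and 0.83 ± 0.0209 in the vehicle. This ratio does not depend on how libraries are scaled, and its values at 16 h of imiquimod lay above those of every other library.

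**Figure D2:**
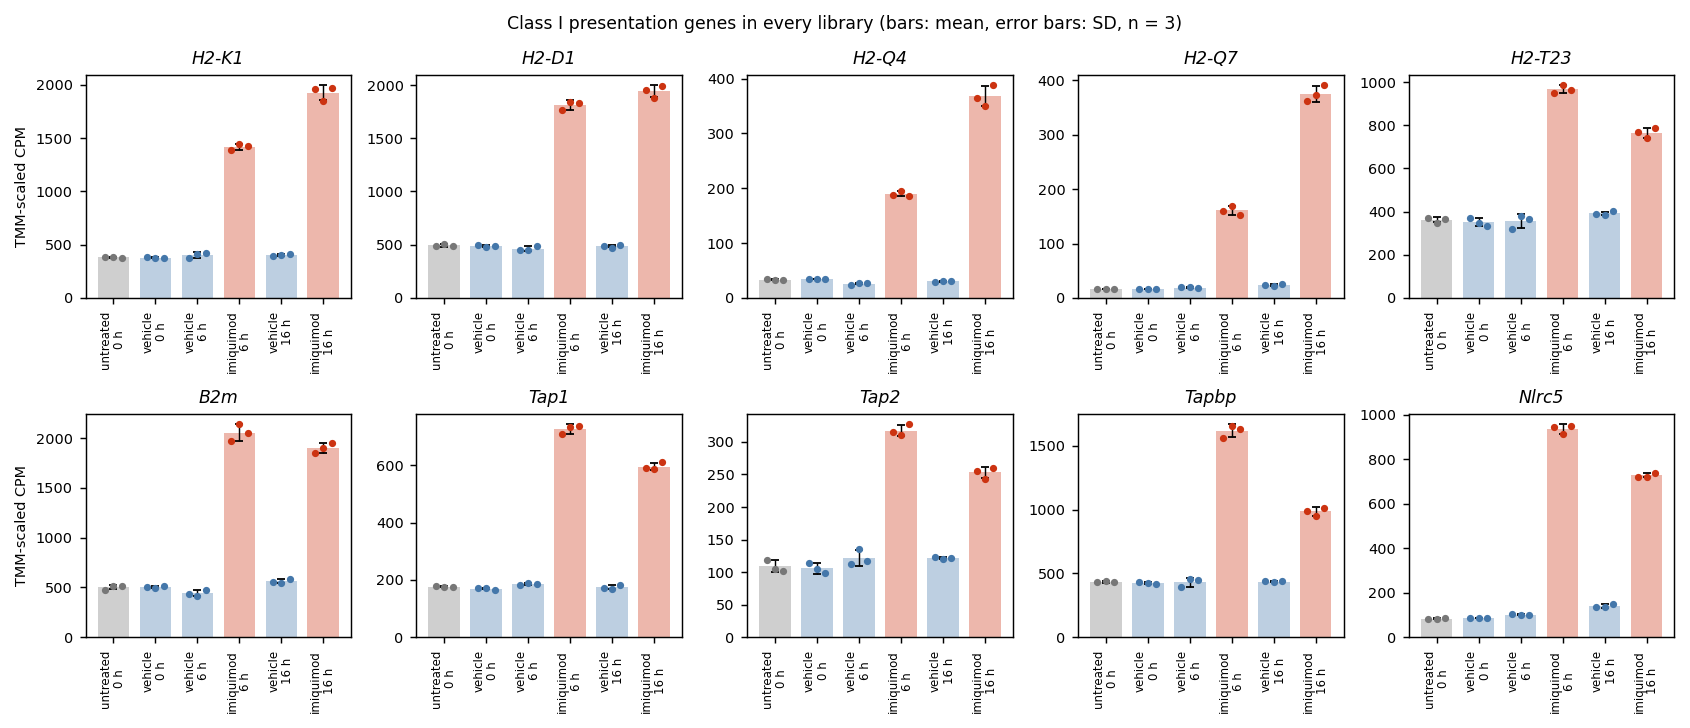
Level of each of the 10 genes in TMM-scaled CPM (vertical axis) by group (horizontal axis), with 1 point per library, bars for the mean and error bars for the SD of 3 libraries. For every gene the imiquimod libraries lie above the vehicle libraries of the same time; H2-K1, H2-D1, H2-Q4 and H2-Q7 are higher at 16 h than at 6 h of imiquimod, and the other 6 genes lower.

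Among the nonclassical chains, the H2-Q genes had the largest folds at 16 h of the 10 members. H2-Q4 (chr17:35379617-35385290) went from 24.3, 26.8 and 26.4 CPM with the vehicle to 188, 195 and 187 CPM with imiquimod at 6 h, and from 29.5, 30.1 and 30.8 CPM to 365, 351 and 388 CPM at 16 h. These are a 7.35-fold and a 12.2-fold rise, or log2 fold changes of 2.88 (SE 0.05, adjusted p = 2.03e-62) and 3.61 (SE 0.05, adjusted p = 7.46e-71). H2-Q7 (chr17:35439155-35443773), which encodes a Qa-2 chain, was the lowest of the 10 in CPM without imiquimod, at 20.1, 19.3 and 17.7 CPM with the vehicle at 6 h and 23.2, 22.4 and 24.9 CPM at 16 h. With imiquimod it had 160.3, 169.6 and 153 CPM at 6 h and 361, 373 and 391 CPM at 16 h. Its log2 fold changes were 3.08 (SE 0.06, adjusted p = 2.69e-61) and 3.99 (SE 0.05, adjusted p = 9.92e-72), an 8.43-fold and a 15.9-fold rise. For both genes the 3 groups of libraries, without imiquimod, 6 h and 16 h, did not overlap.

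H2-T23 (chr17:36029773-36032855, minus strand) rose less and had its higher level at 6 h. It stood at 319, 381 and 365 CPM in the vehicle and 950.3, 986 and 964 CPM with imiquimod at 6 h, then at 390.2, 384 and 400.3 CPM and 769, 739.7 and 786 CPM at 16 h. The log2 fold change was 1.45 (SE 0.04, adjusted p = 1.22e-24) at 6 h and 0.97 (SE 0.04, adjusted p = 1.03e-19) at 16 h. The libraries of 6 h of imiquimod lay above those of 16 h, and both above all others.

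Class I chains resemble each other, so reads can fall to the wrong gene. Of all windows of 75 nt, the read length, in their transcripts, 3.1% were shared with another gene for H2-K1, 5.4% for H2-D1, 7.0% for H2-Q4, 17% for H2-Q7 and 5.9% for H2-T23, and the values of H2-Q7 are the most uncertain for that reason. H2-Q4 also overlaps the antisense gene Gm11131 over 19.1% of its exon length, and the strand setting of the counting is not given in the sources used here. A sum over the 5 heavy chain members is not touched by reads exchanged among them, but is open to reads exchanged with other genes. It was 1286 ± 5.14 CPM (mean ± SD, n = 3 in each group) in untreated cells, 1265 ± 34.8, 1265 ± 73.6 and 1334 ± 25.4 CPM in the vehicle at 0 h, 6 h and 16 h, and 4549 ± 93.7 and 5379.7 ± 171 CPM with imiquimod at 6 h and 16 h. With imiquimod the sum was 3.60 times that of the vehicle at 6 h and 4.03 times at 16 h. For each of the 5, the gene that shared most windows with it lay outside the 5. Windows shared with genes other than the H2 class I chains counted here were 0.5% for H2-K1, 4.3% for H2-D1 and 2.7% for H2-Q4. For H2-Q7 they were 1.4% and for H2-T23 5.9%.

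The make-up of class I chain transcripts moved towards the H2-Q genes. Over the counts of 25 H2 class I chain genes in the table, the 7 H2-Q genes made up 4.84% ± 0.178 in untreated cells, 4.55% ± 0.236 and 5.59% ± 0.0655 in the vehicle at 6 h and 16 h, and 8.93% ± 0.247 and 18.9% ± 0.345 with imiquimod at 6 h and 16 h (SD in percentage points, n = 3). H2-T23 went the other way, with 24.6% ± 1.01 and 25.3% ± 0.0911 in the vehicle and 19% ± 0.0823 and 12.3% ± 0.0112 with imiquimod. The share of H2-K1 and H2-D1 together was 60.1% ± 1.16 and 57.5% ± 0.0832 in the vehicle against 63.4% ± 0.386 and 62% ± 0.403. At 16 h of imiquimod, H2-Q4, H2-Q6 and H2-Q7 held like shares, 5.9% ± 0.132, 5.88% ± 0.0274 and 6.01% ± 0.22. Being shares within a library, these values do not depend on the scaling between libraries, and with 3 libraries against 3 no exact permutation test can go below p = 0.1.

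**Figure D3:**
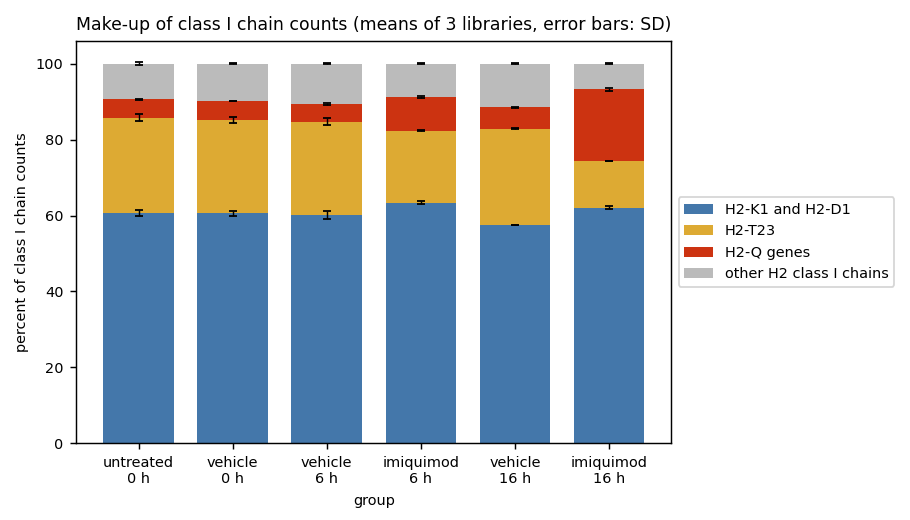
Percent of the counts of 25 H2 class I chain genes (vertical axis) that fell to H2-K1 and H2-D1, to H2-T23, to the H2-Q genes and to the others, by group (horizontal axis); bars are means of 3 libraries and error bars the SD of the segment below them. The H2-Q segment is 18.9% at 16 h of imiquimod and under 6% in the 4 groups without it.

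B2m (chr2:122147686-122153083) had 439, 410.3 and 472 CPM in the vehicle and 1973, 2138 and 2056 CPM with imiquimod at 6 h. The values at 16 h were 559, 542 and 585 CPM and 1849.6, 1897 and 1952 CPM. The imiquimod libraries stood far above the rest, and those of 6 h above those of 16 h. Its log2 fold change was 2.22 (SE 0.04, adjusted p = 7.2e-46) at 6 h and 1.76 (SE 0.04, adjusted p = 2.45e-41) at 16 h. None of its 75 nt windows is shared with another gene. Set against its partner chains, the ratio of B2m counts to the counts of the 5 heavy chain members was 0.349 ± 0.029 and 0.421 ± 0.00827 in the vehicle at 6 h and 16 h, and 0.452 ± 0.00895 and 0.353 ± 0.0117 with imiquimod (SD, n = 3). The ratio was thus above its vehicle at 6 h and below it at 16 h, with no overlap of libraries at either time. Since it takes no account of gene length, only its movement can be read. At 0 h it was 0.39 ± 0.0156 in untreated cells and 0.397 ± 0.0156 in the vehicle. Imiquimod libraries lay above those of 0 h at 6 h and below them at 16 h. The vehicle moved as well, and its libraries of 6 h overlapped those of 16 h of imiquimod.

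The transporter and tapasin genes rose too, Tap2 least. Tap1 (chr17:34187553-34197225) went from 181, 189 and 186 CPM to 708, 733 and 738 CPM at 6 h and from 171, 169.8 and 182 CPM to 589, 588 and 609.8 CPM at 16 h, vehicle to imiquimod. Its log2 fold changes were 1.97 (SE 0.03, adjusted p = 8.95e-63) and 1.77 (SE 0.03, adjusted p = 6.11e-59). Tap2 (chr17:34203527-34216321), its neighbour on the chromosome, had 112, 135 and 117 CPM and 315, 311 and 327 CPM at 6 h, and 123, 121 and 122 CPM and 256, 243 and 261 CPM at 16 h. For Tap2 the log2 fold change was 1.38 (SE 0.06, adjusted p = 2.43e-14) at 6 h and 1.05 (SE 0.06, adjusted p = 3.28e-12) at 16 h. The transporter's 2 genes thus moved unequally: the ratio of Tap1 to Tap2 counts within a library was 1.4 to 1.62 and 1.39 to 1.49 in the vehicle at 6 h and 16 h and 2.25 to 2.36 and 2.3 to 2.42 with imiquimod. Exons of Tap1 overlap those of Psmb9 on the other strand over 3.9% of their length, and those of Tap2 overlap the noncoding genes Gm15821 over 14.1% and Gm20496 over 4.4%.

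Tapbp (chr17:33915899-33929292) was at 391, 454 and 445 CPM in the vehicle at 6 h and 1562, 1657 and 1634 CPM with imiquimod. By 16 h the values were 439, 431 and 439 CPM and 992, 951 and 1013 CPM. Of the 6 members that were lower at 16 h than at 6 h of imiquimod, it had the largest decline, at -0.72 (SE 0.03, adjusted p = 1.48e-29) on the log2 scale between those groups. Against the vehicle it rose by 1.91 (SE 0.04, adjusted p = 2.13e-54) at 6 h and 1.18 (SE 0.04, adjusted p = 1.67e-41) at 16 h on the log2 scale. Its exons overlap the antisense gene Gm19412 over 24.9% of their length and Zbtb22, on the same strand, over 4.1%.

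Nlrc5 (chr8:94434356-94527272), the transactivator gene, had 103, 99.9 and 98.1 CPM in the vehicle and 947, 912 and 949 CPM with imiquimod at 6 h. At 16 h it stood at 136, 134 and 151 CPM with the vehicle and 722, 722 and 738 CPM with imiquimod. Its log2 rise of 3.22 (SE 0.04, adjusted p = 5.81e-75) at 6 h, a 9.33-fold rise, was the highest of the 10 at that time, while at 16 h the value of 2.37 (SE 0.04, adjusted p = 3.06e-66) came after those of H2-Q7 and H2-Q4. Nlrc5 was also the member that rose most over 16 h of the vehicle alone, as described below.

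Across the 10 genes, all 10 were called higher at 6 h, where 37.7% of all tested genes were called higher and 76.9% in either direction, with a median log2 fold change of 1.97 for the 10 and -0.04 for all genes. At 16 h all 10 were called higher against 39.1% of all genes (77.2% in either direction), with medians of 1.89 and 0.00. In both comparisons the 3 imiquimod libraries lay above the 3 vehicle libraries for all 10 genes, which was so for 37.5% of all genes at 6 h and 40% at 16 h. The 10 genes were chosen with earlier results of these data known, so these counts are descriptions and not tests of the set. Without replicate 1 of the vehicle at 6 h, the log2 fold changes at 6 h were 1.30 to 3.22 and all 10 were still called higher. Scaling by library totals in place of TMM lowered the median of all genes by 0.35 at 6 h (31.1% of calls higher, beside 49% with TMM) and by 0.01 at 16 h, and all 10 genes were still called higher at both times.

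Levels were also divided by kilobases of exon, with the exons of all annotated transcripts of a gene merged. That length can exceed the spliced transcript by an amount that differs between genes, so the order of genes depends on the annotation. H2-Q7, for example, had 4265 nt in 3 exon blocks. By this measure B2m was highest in every group, followed by H2-D1 and H2-K1. In the vehicle at 16 h these stood at 653 ± 25.3, 188 ± 4.55 and 137 ± 2.46 CPM per kb (SD, n = 3), then H2-T23 at 136 ± 2.8, Tapbp at 120.3 ± 1.18, Tap2 at 32.3 ± 0.343, Tap1 at 31.8 ± 1.21, Nlrc5 at 16.5 ± 1.08, H2-Q4 at 11.6 ± 0.252 and H2-Q7 at 5.52 ± 0.293. The libraries of H2-K1 overlapped those of H2-T23 there, and those of Tap2 overlapped those of Tap1. With imiquimod at 16 h the order was B2m at 2208 ± 59.3, H2-D1 at 753 ± 21.6, H2-K1 at 656 ± 23.6, Tapbp at 272 ± 8.75, H2-T23 at 265 ± 8.11, H2-Q4 at 142 ± 7.22, Tap1 at 109 ± 2.26, H2-Q7 at 88 ± 3.52, Nlrc5 at 85.6 ± 1.06 and Tap2 at 66.9 ± 2.41 CPM per kb. Tapbp and H2-T23 overlapped there, as did H2-Q7 and Nlrc5. H2-Q4 thus passed Tap1 and Tap2 by this measure, and H2-Q7 passed Tap2. At 6 h of imiquimod no neighbours in the order overlapped, and H2-Q4 at 73.1 ± 1.77 and H2-Q7 at 37.7 ± 2.0 CPM per kb were still the lowest. In untreated cells and in the vehicle at 0 h the order was the same as each other, from B2m (582 ± 22.6 and 584 ± 14.2) down to H2-Q7 (3.89 ± 0.146 and 3.85 ± 0.0759).

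**Figure D4:**
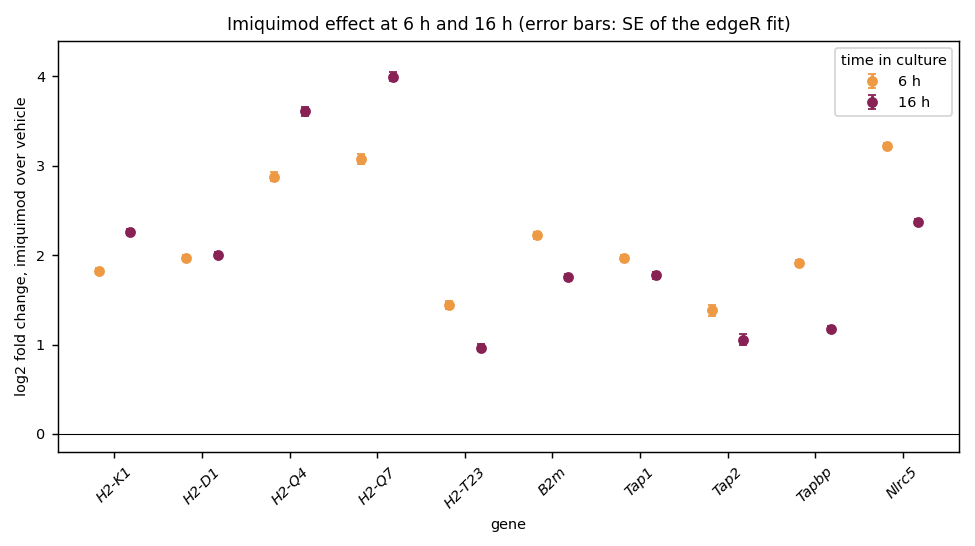
Log2 fold change of imiquimod over the vehicle of the same time (vertical axis) for each of the 10 genes (horizontal axis) at 6 h and 16 h; error bars are the SE of the edgeR fit. All 20 points lie above 0, from 0.97 for H2-T23 at 16 h to 3.99 for H2-Q7 at 16 h.

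The effect of imiquimod differed between the times for 9 of the 10 genes by a test of the difference itself, an interaction term, against 56.9% of all genes called in either direction. It was larger at 16 h for 3 genes (28.5% of all genes): H2-K1 by 0.44 (SE 0.05, adjusted p = 6.5e-13), H2-Q4 by 0.73 (SE 0.08, adjusted p = 6.5e-14) and H2-Q7 by 0.92 (SE 0.09, adjusted p = 6.81e-16) on the log2 scale. It was smaller at 16 h for 6 genes (28.4% of all genes), with differences of -0.48 for H2-T23, -0.47 for B2m, -0.19 for Tap1, -0.33 for Tap2, -0.74 for Tapbp and -0.85 for Nlrc5. H2-D1 was not called, at 0.03 (SE 0.05, adjusted p = 0.583). Library totals raised the median of all genes by 0.34 in this comparison, and 75.5% of calls were then higher, beside 50.1% with TMM. Under that scaling Tap1 turned to 0.14 (adjusted p = 0.00602), Tap2 to 0.00272 (adjusted p = 0.984) and H2-D1 became a call at 0.37, while the other 7 genes kept their direction and their call. Among those, H2-T23 shrank to -0.14 (adjusted p = 0.0181) and B2m to -0.13 (adjusted p = 0.02), Tapbp stood at -0.40 and Nlrc5 at -0.51, and H2-K1 grew to 0.77, H2-Q4 to 1.07 and H2-Q7 to 1.25. The vehicle's own change is part of each difference. With TMM its log2 change from 6 h to 16 h was 0.49 for Nlrc5, 0.35 for B2m and 0.14 for H2-T23. It was -0.09 for Tap1, 0.005 for Tap2 and 0.02 for Tapbp. For H2-K1 it was 0.003, for H2-D1 0.07, for H2-Q4 0.22 and for H2-Q7 0.30.

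Comparing the imiquimod groups directly, which uses the same libraries, 4 genes were called higher at 16 h than at 6 h (31.9% of all genes) and 6 lower (31.8%, and 63.7% either way). The log2 fold changes were 0.44 for H2-K1, 0.10 for H2-D1, 0.95 for H2-Q4 and 1.22 for H2-Q7, against -0.34 for H2-T23, -0.11 for B2m, -0.29 for Tap1, -0.33 for Tap2, -0.72 for Tapbp and -0.36 for Nlrc5. The 4 that rose are also the 4, of 8 with a promoter entry, whose promoter holds GGGATTNCC. That motif was picked after these promoters were read, so the match tests nothing. Their stretches are 82.6% to 87.1% identical and share GAANNGAAA too, and a part of any motif was not tested. The split into 4 higher and 6 lower rests on the scaling for some genes. Library totals moved the median of all genes up by 0.30 (74.6% of calls higher, beside 50% with TMM). Then 5 genes were called higher and Tapbp alone lower (-0.42), with B2m at 0.18 and Tap1 at 0.01. The B2m call was also lost without replicate 2 of imiquimod at 6 h (-0.09, adjusted p = 0.0569) or replicate 1 at 16 h (-0.08, adjusted p = 0.0883).

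Without imiquimod the 10 genes moved much less. The vehicle at 0 h and untreated cells differed in none of the 10 and in 0% of all genes by edgeR. At an unadjusted p under 0.05 the counts were 0 of 10 and 708 of 14876, and DESeq2 also called 0 of both. Log2 fold changes of the 10 lay between -0.06 and 0.06. The vehicle libraries of 6 h and 16 h in what follows are also the controls of the imiquimod comparisons. From 0 h to 6 h of the vehicle 5 genes were called higher and 2 lower, where 26% and 26.9% of all genes were, 52.9% together. H2-Q4 fell from 33.9, 33.8 and 34.4 CPM at 0 h to the 24.3 to 26.8 CPM of 6 h, a change of -0.40 (SE 0.06, adjusted p = 1.15e-07). B2m also fell, at -0.19 (SE 0.04, adjusted p = 3.98e-05). Nlrc5 rose by 0.22, H2-Q7 by 0.22, Tap2 by 0.20, Tap1 by 0.13 and H2-K1 by 0.09 on the log2 scale. The H2-Q7 call was lost without replicate 1 of the vehicle at 6 h (0.19, adjusted p = 0.0758), and that of H2-K1 with DESeq2, with only the groups compared, and without replicate 2 or 3 of either group (0.07 to 0.09, adjusted p up to 0.124).

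By 16 h of the vehicle 6 genes were above their 0 h level and 1 below, against 28.4% and 30% of all genes, 58.4% together. Nlrc5 rose from 86.8, 85.7 and 85.9 CPM to 136, 134 and 151 CPM, a change of 0.71 (SE 0.04, adjusted p = 6.44e-26), with no overlap. H2-Q7 went from 16.8, 16.2 and 16.2 CPM to 23.2, 22.4 and 24.9 CPM, a change of 0.52 (SE 0.08, adjusted p = 2.3e-08). Tap2 (0.20), B2m (0.16), H2-T23 (0.16) and H2-K1 (0.09) rose by smaller amounts, and H2-Q4 was lower (-0.17). The H2-K1 call was lost without replicate 3 at 0 h (0.09, adjusted p = 0.0514) or at 16 h (0.08, adjusted p = 0.108) and with library totals (0.04, adjusted p = 0.291). That of H2-Q4 was lost without replicate 3 at 0 h (-0.16, adjusted p = 0.0551) or replicate 1 at 16 h (-0.15, adjusted p = 0.0623). Between 6 h and 16 h of the vehicle 5 genes were called higher (14.6% of all genes) and 1 lower (15.4%, and 30% either way), from -0.09 for Tap1 (adjusted p = 0.0469) to 0.49 for Nlrc5. The Tap1 call was lost with DESeq2, with its size factors, with a filter of 1 CPM in 3 libraries, without ribosomal RNA genes, with only the groups compared, and without replicate 2 or 3 at 6 h or 1 or 2 at 16 h (-0.07 to -0.09, adjusted p up to 0.203). The H2-T23 call (0.14) was lost without replicate 1 at 6 h (0.07, adjusted p = 0.108) or replicate 3 at 16 h (0.12, adjusted p = 0.0722). For all genes, library totals moved the share of calls that were higher from 48.7% to 36.3% in that comparison.

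The other steps of the class I pathway were followed in 8 lists. Of their 68 tested genes, 52 were called higher and 14 lower at 6 h of imiquimod, and 41 higher and 20 lower at 16 h. With library totals the counts were 38 and 22 at 6 h and 40 and 20 at 16 h. These stand beside the 37.7% and 39.2% of all genes called higher and lower at 6 h and the 39.1% and 38.1% at 16 h. The lists too were chosen with earlier results of these data known, so their counts are descriptions.

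Among other class I-like chains, 14 of 25 in the table could be tested, and 10 were higher and 4 lower at 6 h, 9 and 5 at 16 h (medians 1.77 and 1.65, all genes -0.04 and 0.00). H2-Q6, a Qa-2 chain gene, rose from 15.4 ± 0.722 to 75.3 ± 4.35 CPM at 6 h and from 26.2 ± 0.713 to 367 ± 10.7 CPM at 16 h (SD, n = 3; log2 fold changes 2.28 and 3.81), and 17.9% of its windows are shared with other genes. H2-Q10 and Cd1d2 rose from very few counts. H2-Q10 had 17 counts over the 3 imiquimod libraries at 6 h and 1 over the vehicle libraries, with 1 imiquimod library at 0, a scaled ratio of 21 (exact 95% interval 3.3 to 879). Of its windows 12.5% are shared, most of them with H2-Q7. For Cd1d2, a gene of the CD1d family, these were 15 and 1 counts and a ratio of 18.6 (2.86 to 781). At 16 h H2-Q10 had 51 counts with imiquimod and 4 with the vehicle, a ratio of 10.9 (4.0 to 41.4). Cd1d2 had 95 and 10 counts then, a ratio of 8.1 (4.22 to 17.4). These intervals cover counting error only. The share of windows that Cd1d2 has in common with other genes was not measured. Of the chains that fell, Fcgrt, the neonatal Fc receptor chain, had log2 fold changes of -2.90 at 6 h and -2.62 at 16 h, in levels from 66 ± 2.32 to 10.7 ± 0.175 CPM at 16 h. Hfe, which acts in iron sensing, had -2.82 and -2.56, and Mr1, which presents vitamin metabolites to MAIT cells, -2.50 and -2.39. H2-M2 was at -1.12 (adjusted p = 0.0157) and -2.69, and its call at 6 h was lost without replicate 3 of the vehicle (-0.84, adjusted p = 0.108) or without replicate 1 (-1.02, adjusted p = 0.0519) or 3 (-1.01, adjusted p = 0.0537) of imiquimod. The level of H2-M2 was 0.517 ± 0.195 CPM in the vehicle at 0 h, 1.01 ± 0.338 at 6 h and 7.39 ± 0.374 at 16 h. With imiquimod it was 0.455 ± 0.109 CPM at 6 h and 1.13 ± 0.219 CPM at 16 h. Its difference at 16 h thus goes with a rise in the vehicle, and with imiquimod it was not below its 0 h level then. H2-K2 was higher at 6 h (0.86) and lower at 16 h (-0.75).

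Genes of both kinds of proteasome rose. All 7 immunoproteasome and activator genes were called higher at both times (medians 1.29 and 1.23), 6 of 7 at 6 h with library totals. The activator genes Psme2 (2.52 at 6 h, 1.89 at 16 h) and Psme1 (1.57 and 1.10) and the inducible catalytic subunit gene Psmb9 (1.83 and 1.63) had the largest changes at 6 h, while at 16 h Psmb8 (1.28) and Psme3 (1.23) lay above Psme1. The 3 standard catalytic subunit genes, whose places the inducible subunits take, rose as well, Psmb7 by 0.86 and 1.65, Psmb6 by 1.16 and 1.47 and Psmb5 by 0.79 and 1.31. The difference between the times was called for all 3 and was positive, under either scaling. Within a library, the ratio of Psmb8, Psmb9 and Psmb10 counts to Psmb5, Psmb6 and Psmb7 counts was 2.33 ± 0.0331 in the vehicle and 2.83 ± 0.0817 with imiquimod at 6 h, and 2.76 ± 0.0179 and 2.3 ± 0.0877 at 16 h (SD, n = 3). This ratio was above the vehicle at 6 h and below it at 16 h, with no overlap. Its 0 h values were 2.13 ± 0.0584 in untreated cells and 2.13 ± 0.017 in the vehicle. The vehicle thus rose over time, and every imiquimod library, at 16 h too, lay above all those of 0 h. All 3 standard genes were called lower in the vehicle at 16 h than at 0 h, and also than at 6 h.

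Genes of loading and trimming in the endoplasmic reticulum gave 7 higher and 1 lower of 9 at 6 h, and 7 higher and 2 lower at 16 h, while library totals gave 5 higher and 4 lower at 6 h. The chaperone genes Hspa5 (2.25 and 1.83) and Calr (1.91 and 1.95) and the tapasin relative Tapbpl (1.56 and 0.91), which edits peptides, changed most at 6 h, and at 16 h the disulfide isomerase gene Pdia3 (1.37) lay above Tapbpl. Uggt1, the sensor of unfolded glycoproteins, fell (-0.88 and -0.60). Lnpep, a trimming peptidase of endosomes, was called higher at 6 h at 0.12, but lower at -0.23 with library totals, and lower at 16 h (-0.28). Of 6 cytosolic peptidase genes 4 were higher and 1 lower at 6 h (3 and 3 with library totals) and 3 and 1 at 16 h. Thop1, whose product destroys peptides, rose by 1.35 and 2.78 and Lap3 by 1.32 and 1.06. Npepps was at 0.72 at 6 h, a call, and at 0.03 at 16 h, not a call, and Blmh fell (-0.64 and -0.32).

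Regulators that act at class I promoters gave 11 higher and 2 lower of 13 at 6 h (7 and 3 with library totals), and 8 higher and 3 lower at 16 h. Stat2 (2.51 and 1.37), which carries interferon signals, and Rfx5 (1.70 and 1.15), a DNA-binding partner of NLRC5, were among those that rose. The other members of the RFX complex fell, Rfxap with log2 fold changes of -0.86 and -0.59 and Rfxank with -0.90 and -0.46. In levels, Rfx5 went from 40.8 ± 0.305 to 132 ± 7.16 CPM at 6 h, Rfxank from 24.2 ± 0.759 to 13 ± 1.51 CPM and Rfxap from 8.56 ± 0.948 to 4.72 ± 0.682 CPM (SD, n = 3). Irf2 was called higher at 6 h (0.28; -0.07 and no call with library totals) and lower at 16 h (-0.21). Of the 4 interferon receptor genes, Ifngr1 fell (-2.55 and -2.33) and so did Ifnar2 (-0.81 and -1.15), whereas Ifngr2 rose (1.14 and 0.85). The 4 split into 2 higher and 2 lower at 6 h (1 and 3 with library totals) and 1 and 3 at 16 h.

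Genes of cross-presentation and class I turnover gave 8 higher and 4 lower of 12 at 6 h (3 and 5 with library totals), and 3 higher and 6 lower at 16 h. March9, whose product removes class I from the surface, was lower (-0.89 and -1.30), as were Wdfy4 (-1.28 and -0.96), which is needed for cross-presentation by type 1 conventional dendritic cells, and Clec9a (-0.85 and -1.19), a receptor for dead cells that is itself one of the 5 type 1 markers whose sums were lower with imiquimod. Rab27a was lower at 6 h (-0.75) and not called at 16 h (0.04). Those higher at 16 h were Arf6 (0.74), Sec61g (0.33) and Sec61b (0.13, adjusted p = 0.0424). The Sec61b call at 16 h was lost with DESeq2, with no expression filter, without ribosomal RNA genes, with only the groups compared, with library totals, and without replicate 1 (0.14, adjusted p = 0.0611) or 3 (0.10, adjusted p = 0.189) of the vehicle or 2 (0.11, adjusted p = 0.13) or 3 (0.12, adjusted p = 0.0978) of imiquimod. At 6 h it stood at -0.03 with library totals.

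**Figure D5:**
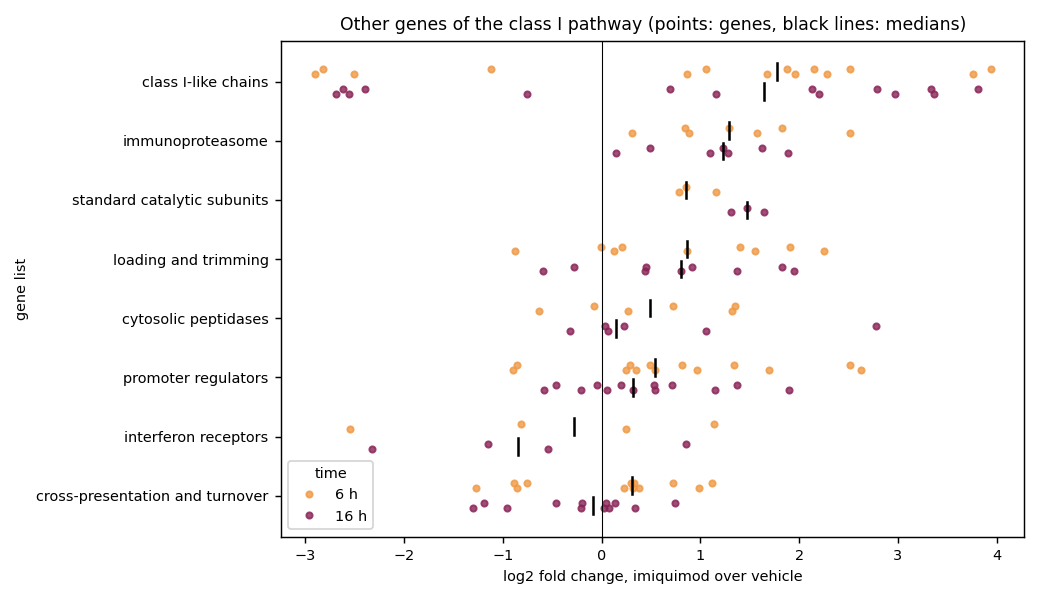
Log2 fold change of imiquimod over vehicle (horizontal axis) for the tested genes of 8 lists of the class I pathway (vertical axis) at 6 h and 16 h; each point is 1 gene and black lines are the list medians. The immunoproteasome and standard catalytic genes lie wholly above 0, and the class I-like chains fall into genes above 0 and genes below it.

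For each member, the 2 protein-coding genes with the most similar profile were taken by the mean absolute difference in log2 CPM, after centring each gene on its mean, over the 18 libraries and 8397 genes with at least 10 CPM on average. The distances are descriptions. H2-K1 was nearest to H2-T22 (0.0685) and Slc31a2 (0.103), H2-D1 to Ly6d (0.0732) and Psmb9 (0.103), and Tap1 to Naa25 (0.0813) and Psmb9 (0.0823). H2-T22 is a class I chain gene with 18.5% of its windows shared, and Psmb9 lies next to Tap1. For H2-T23 they were Crtc2 (0.0574) and Psme1 (0.067), for Tap2 Mtmr4 (0.0822) and Psme1 (0.0851), for Tapbp Mvp (0.0643) and Mat2a (0.0693), for B2m Ergic1 (0.077) and Sinhcaf (0.101) and for Nlrc5 Cflar (0.0848) and Gbp9 (0.0911). The H2-Q genes had more distant neighbours, Sema7a (0.158) and Chpt1 (0.221) for H2-Q4 and Cdh22 (0.171) and Bcl2l14 (0.23) for H2-Q7. Within the 10 genes the closest pair was H2-T23 and Tap2 (0.0691), then H2-D1 and B2m (0.0946) and H2-K1 and H2-D1 (0.106). The most distant pair was H2-Q7 and H2-T23 (1.1).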

How the data were processed

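Raw read counts for each gene, as deposited by the authors, were used from 18 paired-end libraries (75 nt reads) of total RNA depleted of ribosomal RNA. STAR and mm10 are named in the submitters' processing notes, and the counting program and its strand setting are not given in the sources used here. One fit held all 6 groups (edgeR 4.0.16 in R 4.3.3, quasi-likelihood test) after filterByExpr (minimum count 10) and TMM scaling, with an adjusted p threshold of 0.05, and DESeq2 1.42.0 was an alternative. Each SE is the size of the log2 fold change over the root of its F statistic. The fit was tested on simulated counts in which few genes changed, as many up as down. That does not test the scaling under changes as broad as those here. The 10 genes and all lists were chosen with earlier results of these data known. Named genes are the 10 members, up to 3 called genes per list with the largest change, and, where 5 or fewer, called genes against the list's main direction. A gene that this rule picks is not reported here. All 10 identifiers were found in GENCODE M21 without their version, 7 with it. Alternatives were other scalings and filters, no ribosomal RNA genes, a replicate block, the compared groups alone, and each library left out.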

Additional observations from a re-analysis of the deposited data

Results flagged for a closer look

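For 9 of the 10 genes the effect of imiquimod at 16 h differed from that at 6 h by the interaction term of the edgeR fit (n = 3 libraries in each of 4 groups), which is why they are listed here. Log2 differences above 0, a larger effect at 16 h, were 0.44 (adjusted p = 6.5e-13) for H2-K1, 0.73 (adjusted p = 6.5e-14) for H2-Q4 and 0.92 (adjusted p = 6.81e-16) for H2-Q7. Differences below 0 were -0.48 (adjusted p = 3.97e-08) for H2-T23, -0.47 (adjusted p = 6.08e-11) for B2m, -0.19 (adjusted p = 0.000306) for Tap1, -0.33 (adjusted p = 0.00292) for Tap2, -0.74 (adjusted p = 2.45e-21) for Tapbp and -0.85 (adjusted p = 2.35e-25) for Nlrc5. With library totals Tap1 (0.14) and Tap2 (0.00272) no longer lay below 0. The vehicle's own change from 6 h to 16 h is part of each difference, largest for Nlrc5 (0.49) and B2m (0.35).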

How the results depend on the processing

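Scaling by library totals gave most of the reversals. They lowered the log2 sum of the 5 heavy chains at 6 h, imiquimod over vehicle, from 1.85 to 1.5, and took the number of the 10 genes called between imiquimod at 16 h and at 6 h from 10 to 6. They turned the difference between the effects for Tap1 (0.14) and Tap2 (0.00272), the change from 6 h to 16 h of imiquimod for B2m (0.18) and Tap1 (0.0112), and the 6 h effects for Lnpep (-0.23), Irf2 (-0.0679) and Sec61b (-0.0268). Whether the total amount of RNA per cell changed was not tested. Npepps at 16 h, not a call, lay between -0.0124 (without replicate 2 of imiquimod) and 0.0701 with 1 library left out. The cause was not tested. Every other total of called members or list genes, both directions together, was within 1.5 times its value under each alternative. By direction, library totals took the list genes called lower at 6 h from 14 to 22 and the members with a larger effect at 16 h from 3 to 5, and the 1 member lower in the vehicle at 16 h was lost against 6 h in 9 alternatives and against 0 h without replicate 3 at 0 h or replicate 1 at 16 h. The replicate numbers did not pair the libraries: deviations of same-numbered libraries correlated by -0.07 to 0.04 over 45 pairs, and with the replicate block 10 of the 10 genes were called at 6 h and at 16 h, 9 for the difference, and 66 and 61 list genes, as without it. Depth limits chiefly H2-Q10, Cd1d2 and H2-M2, which had few counts.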
